A study of Homo sapiens with 36 samples.

Results

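The regions described here are 1592 CTCF-bound stretches of the human genome that were called as peaks in a control list and in the lists of 4 NuRD knockdowns, and not in the list of the MBD3 knockdown. They were chosen by the peak calls themselves: overlapping or touching peaks of 6 lists were merged on chromosomes 1 to 22 and X, and a region was taken where siNC, siCHD3, siCHD4, siCHD5 and siMBD2 each had a peak and siMBD3 had none. They make up 2.93% of the 54382 merged regions. Chromatin immunoprecipitation and sequencing (ChIP-seq) with an antibody to CTCF was done in HEK293T, a line of human embryonic kidney cells, after transfection of small interfering RNA. The groups share this 1 line and, per the labels, 1 culture and 1 transfection protocol, and differ in the RNA given: siNC is the control, and siCHD3, siCHD4, siCHD5, siMBD2 and siMBD3 are directed against the gene in the name. There were 36 samples, with 3 immunoprecipitates and 3 inputs per condition, and 1 deposited peak list per condition that pools the 3 replicates. How far each target was depleted was not analysed here.

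CTCF is a zinc-finger protein that binds a long DNA motif, blocks the loop extrusion carried out by cohesin, and so marks the anchors of chromatin loops and the borders of domains. NuRD is a complex that joins a nucleosome remodeller of the CHD family (CHD3, CHD4 or CHD5) to histone deacetylases. MBD2 and MBD3 are alternative subunits that hold the complex together, so a given NuRD complex carries one or the other. MBD2 binds methylated CpG sites, whereas mammalian MBD3 has lost most of that preference.

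"Absent" below means that no peak was called in the pooled list of a condition. A pooled list gives no spread between replicates, so no test between conditions was made, and intervals are exact Clopper-Pearson 95% intervals that cover counting error only. The lists also differed in depth, read here as the smallest local background among their peaks, in fragments at the summit. It was 0.374 in siMBD3, the lowest of the 6, against 0.445 in siCHD3, 0.640 in siMBD2, 1.06 in siCHD4, 1.95 in siCHD5 and 2.96 in siNC. The siNC value was 7.92 times that of siMBD3. A site with less CTCF and a site with too few fragments to be called cannot be told apart from these calls alone.

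Of the 13403 regions called in the 5 other lists, 11.9% had no siMBD3 peak (interval 11.3 to 12.4). This is a smaller share than among all regions with a siNC peak, of which 38.3% (13745 of 35931) had no siMBD3 peak. Both shares use the calls that chose the regions, and are given as the background only. The same rule applied to the other lists gave 2526 regions absent only from siCHD4 (17.6% of the regions of the 5 lists that remained, interval 17.0 to 18.3) and 1772 absent only from siCHD3 (13.0%, interval 12.5 to 13.6). It gave 921 absent only from siMBD2 (7.23%, interval 6.79 to 7.70), 439 only from siCHD5 (3.58%) and 46 only from siNC (0.388%). The siMBD3 count thus lay between those of siCHD3 and siMBD2. The lists of siMBD3 and siMBD2 thus differed in this count, 1592 against 921, and the siMBD2 list had 1.71 times the siMBD3 depth.

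**Figure D1:**
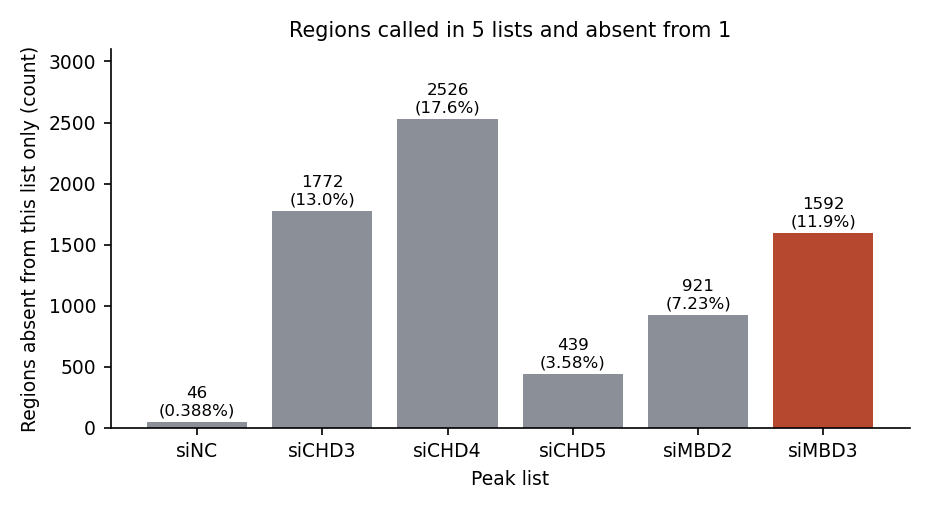
Bars give the number of merged regions called in 5 of the 6 peak lists and absent from the list on the horizontal axis, with the share of all regions called in the other 5 lists in brackets. The siMBD3 bar, in colour, stands at 1592, below siCHD4 (2526) and siCHD3 (1772).

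The regions absent from siMBD3 were CTCF peaks of middling strength in the lists that held them. Fold is the authors' enrichment of fragments at the summit over local background, taken here as their ratio after adding 1 to both. Its percentiles were taken within 1 list. In siNC the median fold of the 1592 regions was 5.65 (lowest 1.55, highest 16.3), against 6.10 for the 11811 regions called in all 6 lists. The medians were 6.27 in siCHD3 against 7.20, 5.02 in siCHD4 against 5.22, 6.93 in siCHD5 against 7.57 and 6.65 in siMBD2 against 7.39. The ranges of the members and of the regions in all 6 lists overlapped in each list. Their median percentile was 59.4 among all siNC peaks, 51.0 in siCHD3, 49.4 in siCHD4, 56.3 in siCHD5 and 50.5 in siMBD2. The members thus lay near the middle of each whole list. Ranked among the 13403 regions of the 5 lists, the members stood at a median percentile of 40.1 in siNC, 33.6 in siCHD3, 44.6 in siCHD4, 40.1 in siCHD5 and 36.2 in siMBD2. Among these better-shared regions they thus stood below the middle by fold, lowest in siCHD3 and highest in siCHD4. The added 1 lowers fold most where background is low, and median background was lower at the members in each list (below). How far this moved the ranks was not tested.

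**Figure D2:**
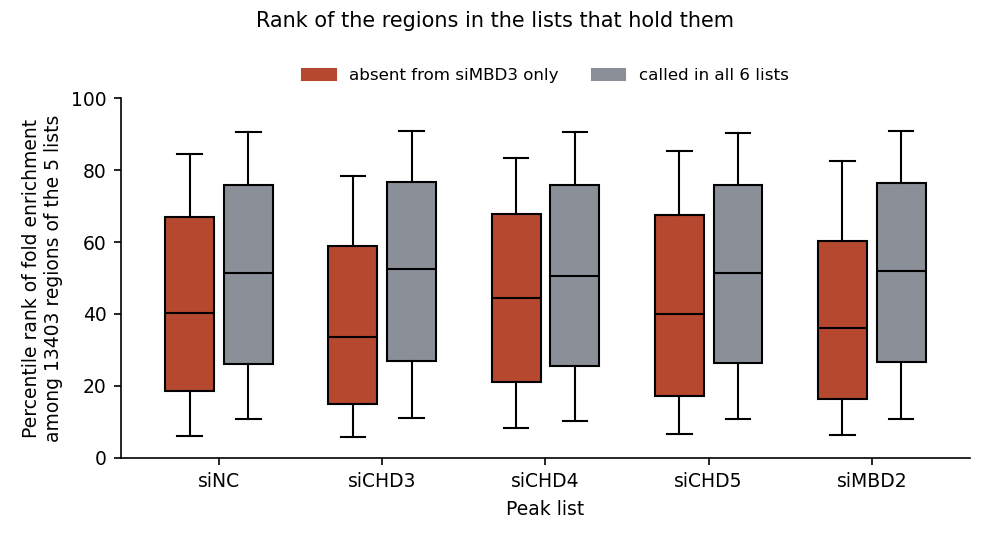
Boxes show the percentile rank of fold among the regions of the 5 lists (median, quartiles, whiskers from the 10th to the 90th percentile) for regions absent from siMBD3 only and for regions called in all 6 lists. The coloured boxes sit lower in each list, with medians from 33.6 (siCHD3) to 44.6 (siCHD4), and overlap the grey ones over most of their range.

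The calls in the 5 lists, which the rule itself required, were less secure for these regions than for the regions in all 6 lists. The −log10 q in the authors' deposited table of peaks, a score of each peak against its local background that is higher for surer calls, was at least 5 in all 5 lists for 1147 of the 1592 (72.0%), at least 10 for 250 (15.7%) and at least 20 for 4. Of the regions in all 6 lists, 88.7%, 47.8% and 8.26% reached the same scores in those 5 lists. The least secure call of a member lay in siCHD3 for 706 regions, in siCHD4 for 522 and in siMBD2 for 332, but in siCHD5 for 23 and in siNC for 9, the 2 deepest lists. In siCHD3, 244 members (15.3%) had a −log10 q under 5, against 5.24% of the regions in all 6 lists.

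Peaks of the 5 lists marked nearly the same point within these regions, as they did in the regions of all 6 lists. The 5 summits of a member spanned a median of 26 bp (quartiles 19 and 37), against 21 bp for regions in all 6 lists. They lay within 50 bp for 1403 members (88.1%), against 91.3% of the regions in all 6 lists. The merged regions were compact, with a median width of 383 bp (lowest 212, highest 1477) against 409 bp. Regions over 1 kb were rare, 6 of 1592 (0.377%, interval 0.138 to 0.819), against 2.79% of the regions in all 6 lists (interval 2.50 to 3.10). A region in all 6 lists also takes in its siMBD3 peak, which can widen it. The rule itself thus favours narrower members in both comparisons of width. Within the siNC list alone, the median peak width was 321 bp for members and 352 bp for regions in all 6 lists. Peaks with several summits were likewise few: 16 members (1.01%) had one in siNC, against 4.005% of the regions in all 6 lists. Only 4 members held more than 1 siNC peak.

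The strongest member by median percentile over the 5 lists lay on chromosome 8 from 87905019 to 87905554 (hg19). Its fold was 13.7 in siNC, 7.80 in siCHD3, 14.1 in siCHD4, 10.5 in siCHD5 and 12.1 in siMBD2, and the nearest siMBD3 peak was 107329 bp away. A second region of that chromosome, from 139779873 to 139780218, had folds of 9.60 in siNC, 7.05 in siCHD3, 6.97 in siCHD4, 14.3 in siCHD5 and 10.9 in siMBD2. Both ranked above the median peak of each list that held them, and ranked lowest in siCHD3. On chromosome 18, the region from 58216556 to 58217038 reached 12.3 in siNC, 10.8 in siCHD3, 8.52 in siCHD4, 23.4 in siCHD5 and 10.9 in siMBD2, with no siMBD3 peak for 258669 bp. On chromosome 2, the region from 89218802 to 89219263 had 11.1 in siNC, 7.61 in siCHD3, 6.50 in siCHD4, 14.3 in siCHD5 and 10.7 in siMBD2. The region on chromosome 4 from 82765831 to 82766206 had 11.1 in siNC, 6.65 in siCHD3, 4.27 in siCHD4, 13.9 in siCHD5 and 10.5 in siMBD2. Fold scales differ between lists, and by percentile within each list these 3 regions were above 94 in siNC, siCHD5 and siMBD2. Their percentiles were lower in siCHD3 (89.9, 70.3 and 56.7) and siCHD4 (91.6, 79.2 and 25.95).

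Others of the 10 strongest members were uneven between lists. On chromosome 14, the region from 80010248 to 80010662 had 5.38 in siNC and 5.04 in siCHD3, but 10.1 in siCHD4, 11.5 in siCHD5 and 10.97 in siMBD2, and it had no other siNC peak within 500 kb. On chromosome 4, the region from 58292931 to 58293371 had 4.28 in siNC, below the 11.4 in siCHD3, 10.2 in siCHD4, 12.9 in siCHD5 and 10.3 in siMBD2. In the first the control peak ranked lower within its list than the peaks of 3 knockdowns did within theirs, and in the second lower than those of all 4. The highest siNC fold among the members, 16.3, belonged to chromosome 14 from 42069710 to 42070131, where siCHD3 had 8.34, siCHD4 8.01, siCHD5 12.4 and siMBD2 8.04. It was followed in siNC by chromosome 19 from 18340212 to 18340618 (fold 13.9) and, after the chromosome 8 region named first, by chromosome 18 from 59303061 to 59303405 (13.5) and chromosome 5 from 155370772 to 155371207 (12.9). These peaks ranked above 99.5% of the siNC list. No member, however, was in the top 10% of all 5 lists (0 of 1592, upper bound 0.231%), whereas 120 of the 11811 regions in all 6 lists were (1.02%).

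Agreement in strength between the lists was loose among the members. Over the 1592 members, the Spearman correlation of the fold percentiles of 2 lists ran from 0.18 to 0.36 over the 10 pairs, a description over regions that share the 5 libraries. That correlation was not computed for the regions in all 6 lists, so whether the looseness is particular to the members is not known. At or above the 50th percentile of all 5 lists were 174 members (10.9%), against 22.9% of the regions in all 6 lists. Below it in all 5 were 116 members (7.29%), against 3.01%.

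The 5 widest members were strong in siCHD3 and low in siCHD5 and siMBD2, but choice by width is not independent of siCHD3. In the widest, the siCHD3 peak spanned the whole merged region of 1477 bp. The 5 had folds of 18.1 to 22.7 in siCHD3, and 4 of them ranked in the strongest 10% of siCHD4. The region on chromosome 3 from 52407725 to 52408887 stood at the 56.8th percentile in siCHD4. The widest, on chromosome 11 from 63525637 to 63527113, had 6.55 in siNC, 22.7 in siCHD3, 11.8 in siCHD4, 4.04 in siCHD5 and 4.13 in siMBD2. The next, on chromosome 7 from 6442029 to 6443494, had 10.6 in siNC, 18.1 in siCHD3, 10.3 in siCHD4, 3.02 in siCHD5 and 4.78 in siMBD2. On chromosome X, the region from 17771567 to 17772841 had 4.28 in siNC, 20.9 in siCHD3, 10.9 in siCHD4, 3.99 in siCHD5 and 4.20 in siMBD2. A set chosen after these values were seen, the regions in the strongest 10% of both whole lists, siCHD3 and siCHD4, held 21 members (1.32%, interval 0.818 to 2.01), with a median width of 538 bp. Of the regions in all 6 lists, 932 (7.89%, interval 7.41 to 8.39) met the same condition. Their median width was 683 bp, which takes in the siMBD3 peak. In the lists that did not choose them, the 21 members had a median percentile of 60.2 in siNC, 21.2 in siMBD2 and 13.5 in siCHD5, against 93.2, 53.5 and 50.5 for the 932. Such regions were thus a smaller share of the members, and those members ranked lower in the 3 lists. They were not alike: the chromosome 3 region from 31495816 to 31496340 had 22.9 in siCHD3 and 12.1 in siCHD4 against 9.37 in siNC, 5.48 in siCHD5 and 6.45 in siMBD2. By contrast, the chromosome 4 region from 58292931 described above met the condition and also ranked in the strongest 10% of siCHD5 and siMBD2, and the chromosome X region from 56790841 to 56791378, described below, stood at the 99.96th percentile in siCHD5 and the 80.8th in siMBD2.

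At the other end, members of the lowest folds lay in stretches of very high background. On chromosome X, the region from 61687283 to 61687544 had folds of 1.76 in siNC, 1.99 in siCHD3, 1.96 in siCHD4, 1.77 in siCHD5 and 1.85 in siMBD2, over a siNC background of 403.7 fragments. On chromosome 8, the region from 46842206 to 46842626 had folds from 1.55 (siNC) to 1.92 (siCHD5) over a siNC background of 222.8, and the pair on chromosome 17 from 22250069 to 22250495 and from 22258119 to 22258706 had siNC folds of 1.73 and 1.74. The 5 members of lowest rank lay on chromosomes 8, 17 and X and had −log10 q from 10.5 to 39.8 in siNC. Few members were of this type: 13 (0.817%) had a siNC background over 20 times the lowest of that list, close to the 0.881% among regions in all 6 lists.

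Which of the regions were absent from siMBD3 followed the number of fragments at the site more closely than the fold. Summit pileup, the number of fragments over the summit, was solved from the authors' fold and p. Its median in siNC was 69 fragments for the members and 101 for the regions in all 6 lists, and the median local background was 11.4 against 15.6. The share absent fell from 30.4% in the lowest 10% of siNC pileup (interval 27.9 to 32.9) to 1.49% in the highest 10% (0.913 to 2.29). By local background it fell from 24.3% (22.04 to 26.7) to 2.61% (1.82 to 3.61), and by fold from 18.3% (16.2 to 20.4) to 6.56% (5.30 to 8.02). The fall with pileup was thus the steepest of the 3.

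**Figure D3:**
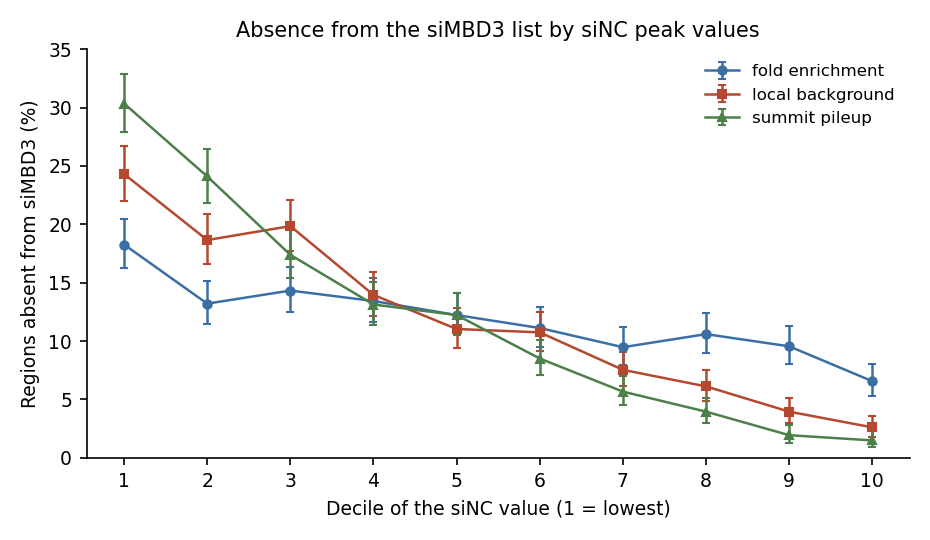
Points give the percentage of the regions of the 5 other lists that were absent from siMBD3, by decile of their siNC fold, local background or summit pileup, with exact 95% intervals. All 3 lines fall from left to right, pileup from 30.4% to 1.49% and fold from 18.3% to 6.56%.

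Background and fold each went with absence when the other was held in a narrow range. In the third of regions with the highest siNC fold, 14.2% of those that were also in the third with the lowest background were absent from siMBD3 (332 of 2334, interval 12.8 to 15.7), against 0.903% of those in the third with the highest background (7 of 775, interval 0.364 to 1.85). In the third with the lowest fold, the shares were 30.3% (271 of 893) at low and 6.94% (150 of 2161) at high background. A strong peak on low background was therefore absent more often than a weak peak on high background. Each of the other lists also had lower background at the members: the median was 1.62 fragments in siCHD3 against 2.249 for regions in all 6 lists, 4.17 in siCHD4 against 6.05, 6.05 in siCHD5 against 8.18 and 2.15 in siMBD2 against 2.95.

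The chance of a call at the siMBD3 depth was then computed for each region by thinning its pileup to that depth, with no variation between libraries. Thinned from siNC, the members had a mean chance of 69.1% and the regions in all 6 lists 84.3%. The share absent from siMBD3 fell with this chance, from 28.4% where it was under 50% (340 of 1199) to 21.5%, 12.7% and 6.98% in the next 3 classes and 1.50% where it was 99% or more (32 of 2132, interval 1.03 to 2.11). The computed chance was lower than the share in fact called: in the lowest class its mean was 35.1% although 28.4% were absent, and over all 13403 regions it was 82.5% although 11.9% were absent. The depth ratio of 7.92 was also larger than the ratio of summit pileups in regions called in all 6 lists, whose median was 101 in siNC and 22 in siMBD3. The chance is therefore used to order regions, not as a rate. By this order, 32 of the 1592 members (2.01%) had a control summit with a chance of 99% or more, against 17.8% of the regions in all 6 lists. Of the regions absent only from siCHD4, 1913 of 2526 (75.7%) had a chance of 99% or more at the siCHD4 depth. Of the regions in all 6 lists, 90.9% reached that class at the siCHD4 depth. Of all regions in that siCHD4 class, 15.1% were absent (1913 of 12653, interval 14.5 to 15.8). For siMBD2 the share at 99% or more was 2.64% (200 of 7586, interval 2.29 to 3.02) and for siCHD3 3.88% (158 of 4068, interval 3.31 to 4.52). The siMBD3 share was the lowest of these 4. The class of 99% or more held 2132 of 13403 regions for siMBD3 and 4068 of 13583 for siCHD3. It held 7586 of 12732 for siMBD2 and 12653 of 14337 for siCHD4. These are unlike sets, so the order of the shares does not compare losses between the lists.

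**Figure D4:**
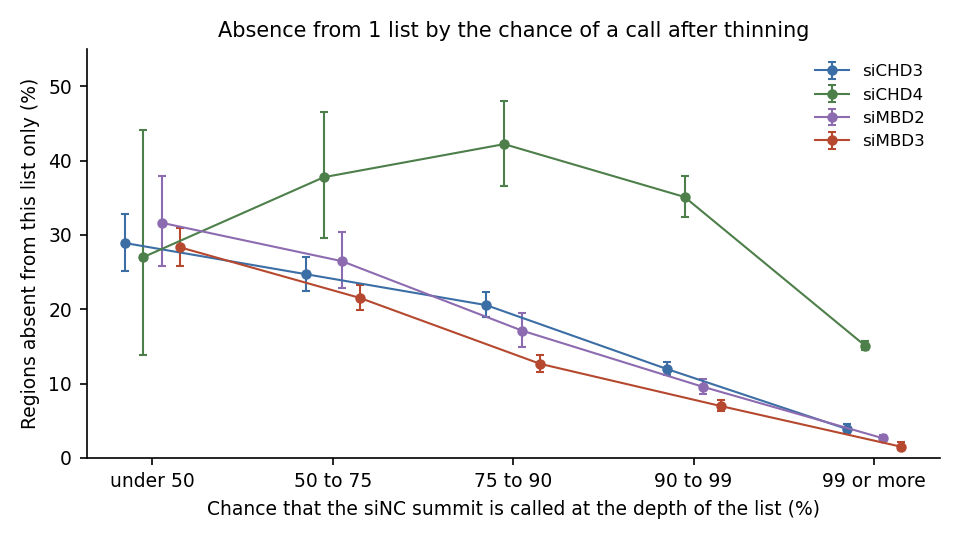
Points give the percentage of regions absent from 1 list only, among those called in the other 5, by class of the chance that the thinned siNC summit is called at the depth of that list, with exact 95% intervals. The siMBD3 line falls from 28.4% to 1.50%, and siCHD4 stands at 15.1% in the class of 99% or more. A class holds unlike parts of the regions from list to list. The siCHD5 list is not drawn, since its first 3 classes hold 15, 18 and 38 regions.

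The list from which pileup was thinned moved this value widely. Thinned from siCHD3, whose depth was 1.19 times that of siMBD3, the members had a mean chance of 98.3%, and from siMBD2 94.6%. From siCHD5 it was 80.4% and from siCHD4 74.3%. The rule required a call in each of these lists, so pileups there are those of peaks that had passed. The estimate was highest from siCHD3 and siMBD2, the lists nearest to siMBD3 in depth, and lowest from siNC, the deepest. Taking the lowest of the 5 values, 150 members (9.42%) had a chance of at least 90% from every list. That count was not made for the regions in all 6 lists, so it has no background share. From siNC alone, 22.1% of the members reached 90%, against 53.9% of the regions in all 6 lists. The part of depth and of variation between libraries in the absences was not tested.

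Few members had a siMBD3 peak close by. Of the 1592, 50 members (3.14%, interval 2.34 to 4.12) had a siMBD3 peak within 1 kb, and the median distance to the nearest one was 28233 bp (quartiles 9609 and 71162). The nearest lay 234 bp from the region on chromosome 22 from 25729378 to 25729780, whose folds were 7.19 in siNC, 8.80 in siCHD3, 5.01 in siCHD4, 7.55 in siCHD5 and 6.72 in siMBD2. A siMBD3 peak lay 235 bp from chromosome 2 from 55276066 to 55276450, and 393 bp from chromosome X from 56790841 to 56791378, a strong member with folds of 5.67 in siNC, 17.2 in siCHD3, 9.94 in siCHD4, 23.02 in siCHD5 and 8.46 in siMBD2. For the regions absent only from siCHD4 the median distance was 27935 bp, and 2.53% had a siCHD4 peak within 1 kb. Just outside the rule, 31 of the 11811 regions in all 6 lists had a siMBD3 −log10 q under 2, and 627 (5.31%) had one under 5. Among them, chromosome X from 23026583 to 23026910 had a fold of 12.6 in siNC and 3.71 in siMBD3, with a −log10 q of 1.72 there. Chromosome 7 from 302906 to 304000 had 9.09 in siNC and 3.64 in siMBD3, also at 1.72.

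The members were spread over all 23 chromosomes, unevenly. On chromosome 18, 34 of 164 regions of the 5 lists were absent from siMBD3 (20.7%, interval 14.8 to 27.7), on chromosome 4 99 of 530 (18.7%, interval 15.4 to 22.3) and on chromosome 8 96 of 530 (18.1%, interval 14.9 to 21.7). These 3 lay above the 11.9% of all chromosomes, and their intervals did not include it. Chromosome 22 had the lowest share, 21 of 312 (6.73%, interval 4.21 to 10.1), followed by chromosome 1 with 124 of 1559 (7.95%, interval 6.66 to 9.41). Median siNC background was 10.1 on chromosome 18, 12.1 on chromosome 8 and 13.1 on chromosome 4, against 18.5 on chromosome 22 and 19.2 on chromosome 1. Over the 23 chromosomes, the Spearman correlation of the share absent with median siNC background was −0.49, a description of chromosomes that share the same libraries. With the mean chance of a call it was −0.04. The chromosomes at the ends of the chance scale matched their shares: chromosome 18 had the lowest mean chance (75.96%) and the highest share absent, and chromosome 1 the highest mean chance (86.02%) and the second lowest share. Others did not, since chromosome 22, with the lowest share, had a mean chance of 78.9%, below the 81.0% of chromosome 4.

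**Figure D5:**
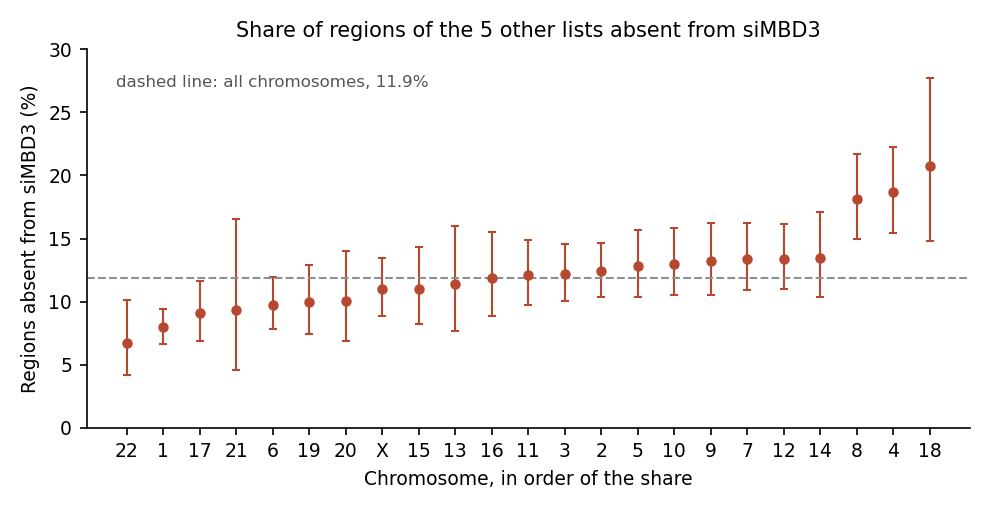
Points give, for each chromosome, the percentage of regions of the 5 other lists that were absent from siMBD3, with exact 95% intervals, in rising order. Chromosomes 8, 4 and 18 stand at 18.1%, 18.7% and 20.7%, above the dashed line at 11.9%, and chromosomes 22 and 1 below it.

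Within chromosomes most members stood alone in the order of the regions of the 5 lists. Members adjoined each other somewhat more often than their overall share. The median distance from a member to the next nearest was 588 kb, and 126 members (7.91%) had another within 50 kb. The next region of the 5 lists along the chromosome was also a member in 223 of 1589 cases (14.0%, interval 12.4 to 15.8). The interval did not include the 11.9% overall. Of the runs of consecutive members 1188 were single regions, 151 pairs, 20 of 3 and 9 of 4, with no expected numbers computed. The longest, singled out after the values were seen, held 6 members on chromosome 4 from 123852048 to 125183757, a span of 1332 kb. It lay in the 10 Mb window with the highest share, chromosome 4 from 120000001 to 130000000, where 10 of 24 regions were absent from siMBD3 (41.7%, interval 22.1 to 63.4). Next came chromosome 3 from 180000001 to 190000000 with 12 of 34 (35.3%) and chromosome 7 from 40000001 to 50000000 with 11 of 34 (32.4%). In 2 of the 263 windows with at least 20 regions there was no member: chromosome 3 from 100000001 to 110000000, with 0 of 40 (upper bound 8.81%), and chromosome X from 150000001 to 160000000, with 0 of 49 (upper bound 7.25%).

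Members lay in stretches with somewhat fewer CTCF peaks. Within 500 kb of a member there was a median of 14 other siNC peaks (quartiles 10 and 20), against 16 for regions in all 6 lists (quartiles 12 and 23). In the fifth of regions with the fewest neighbours 16.6% were absent from siMBD3 (interval 15.2 to 18.0), and in the fifth with the most 8.50% (interval 7.48 to 9.62). Local background changed with it, from a median of 12.4 to 18.1. In the third of regions with the lowest siNC background the shares were 23.8% (307 of 1290) and 16.0% (100 of 625), whose intervals did not overlap. In the third with middle background they were 12.8% (114 of 890) and 9.57% (73 of 763), with overlapping intervals. In the third with the highest background they were 4.59% (23 of 501) and 4.25% (55 of 1293), with overlapping intervals. A lower share in the densest stretches, with intervals apart, was thus seen only where background was lowest. At middle background the overlap leaves a fall with density unresolved. At the highest background the share stayed between 3.97% and 5.53% at every level of density, with no steady fall.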

How the data were processed

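Per the labels' protocols, CTCF immunoprecipitates and inputs were sequenced from both ends. The submitters' processing notes name MACS2 2.1.2, SAMtools 1.9, Bowtie2 2.3.4, deepTools 3.5.0, bedtools 2.25.0, FastQC 0.11.7 and the build hg19, but not what each did; roles and settings are not given in the sources used here. All 6 deposited lists have the narrow-peak layout and hold the authors' fold enrichment (a ratio), −log10 p and −log10 q per peak, a display score from the authors that was not used, and a summit offset. The peak names show that the authors called 3 replicates together.

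Lines sharing start and end were 1 peak with the summit of highest fold. Peaks were merged as bedtools 2.31.1 merge does. Pileup and background were solved from p, taken as a Poisson tail, and from fold, taken as the ratio of both values after adding 1, which matched p within 0.01% for 100% of peaks. Thinning was binomial, to the ratio of the lists' smallest backgrounds, and a summit counted as called at the siMBD3 list's smallest −log10 p of 3.82. Functions were tested on simulated data. Python 3.11.15, numpy 2.4.6, scipy 1.17.1 and pandas 2.3.3 were used.

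Named regions are, by rule, the 10 of highest and 5 of lowest median percentile, the 5 of highest siNC fold, the 5 widest, the 5 nearest a siMBD3 peak, and 5 regions in all 6 lists with the weakest siMBD3 peak among the strongest 10% in siNC. The leading ones are printed. Members and rules were chosen with earlier results of these data known. Gene context, base composition and motifs, though planned, were not analysed here, since no hg19 genome or annotation was used.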

Additional observations from a re-analysis of the deposited data

How the results depend on the processing

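The count of 1592 stayed within 1.5 times under 11 of 13 alternatives, which need not hold the same regions. It was 250 with −log10 q of at least 10 in the 5 lists and siMBD3 as deposited, and 2636 when a siCHD4 peak was not required. The median siNC fold (5.65) was 5.75 with a −log10 q minimum of 5 in each list, 6.15 with a minimum of 10 in each list, 6.13 with at least 10 in the 5 lists, 5.78 with lists of equal length, and 5.49, 5.44, 5.52 and 5.48 when siCHD3, siCHD4, siCHD5 or siMBD2 was not required. The share with a deposited siMBD3 peak within 1 kb (3.14%) was 28.0% and 79.0% with a −log10 q minimum of 5 or 10 in each list, since weaker siMBD3 peaks then no longer count as calls. It was 4.80% with at least 10 in the 5 lists, 1.27% after merging within 500 bp and 5.26% by summits within 100 bp. The mean chance of a call thinned from siNC (69.1%) was 73.6% and 86.6% under those minimums, 85.4% with at least 10 in the 5 lists, 76.0% with equal lengths, and 64.8%, 64.0%, 64.3% and 64.8% when siCHD3, siCHD4, siCHD5 or siMBD2 was not required. It was 98.3%, 74.3%, 80.4% and 94.6% thinned from siCHD3, siCHD4, siCHD5 and siMBD2. The cause of these other changes was not tested. With all contigs, 30 more regions met the rule. No paired analysis was possible because each list pools the 3 replicates, and for the same reason no replicate could be left out. At regions in all 6 lists the median pileup was 22 fragments in siMBD3 and 23 in siCHD3, which limits what either list could call; the limits were not compared.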
